A study of Mus musculus with 6 samples.

Results

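The library labelled brain was 1 of 6 Ribo-seq libraries of mouse tissue in the series. It was selected by its label, and its ribosome densities were compared with those of the other 5, labelled colon, heart, kidney, lung and small intestine. Each library came from WT C57BL/6J mice aged 4 weeks that had received no treatment, so that the 6 shared strain, genotype and age and differed in the tissue named. Ribo-seq sequences the mRNA fragments that translating ribosomes protect from RNase, and each deposited table lists protein-coding mRNAs with their RPKM, the reads on the coding sequence (CDS) scaled to its length and to the reads on all CDSs. There was 1 library per label and the sources used here do not say how many animals it was made from, so there is no replicate error. The differences below compare libraries, with no test, and the intervals given cover counting error only. Because whole tissue was lysed, more cells of a type and more ribosomes on an mRNA per cell cannot be told apart, and no RNA-seq of these tissues was analysed here.

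The epithelium of the small intestine digests and absorbs food. Its enterocytes carry a brush border of microvilli set with hydrolases and transporters, and pack absorbed fat into chylomicrons with apolipoproteins made on the spot. Paneth cells at the base of the crypts secrete antimicrobial peptides, goblet cells secrete mucus, and enteroendocrine cells secrete hormones. The last stretch, the ileum, is known for taking bile acids back up, whereas iron, calcium and much of the fat are taken up in the first.

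The label was checked against 44 mRNAs of neurons, astrocytes, oligodendrocytes and microglia. None of the 44 had its highest ribosome density in the library labelled brain, and 38 had it in that labelled small intestine. Of the 44, 12 had no reads here and 6 more had between 1 and 3. By the rule for differences given below, 13 were lower and 1 was higher, the calcium-binding S100b, with 24.5 RPKM here and 211 RPKM in that labelled small intestine. Without the library labelled lung, with a pseudocount of 10 or with a size of 3 none was higher. With a pseudocount of 0.1, against the median of the other libraries or without that labelled small intestine 2 were higher. The 13 lower were 4 without that labelled small intestine, 5 against the median of the other libraries or with a size of 3, 2 with a pseudocount of 10 and 18 with a pseudocount of 0.1. Camk2a, a kinase of excitatory synapses, had 20.8 RPKM here and 6863 RPKM in the library labelled small intestine. Mag, a myelin protein, had 4.05 against 2339 RPKM. Thus the data went against the label, and the library is named by its label throughout. Other labels also went against markers. Of 14 kidney genes, 13 were highest in the library labelled colon, and of 15 colon genes, 13 were highest in that labelled kidney. The names of the comparison libraries below are therefore labels only, and not checked tissues.

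For each of 18437 mRNAs the difference was taken as log2(RPKM + 1) in the library labelled brain minus the mean of log2(RPKM + 1) in the other 5. A difference of 2, which is 4-fold for abundant mRNAs and understates the change of mRNAs near 1 RPKM, was the size called. By this rule 1307 mRNAs were higher here, 7.09% of all, and 1685 were lower, 9.14% of all, with a median difference of -0.15. A smaller group of 256, 1.39% of all, exceeded the highest of the other 5 libraries by as much. The 1307 higher mRNAs took 42.2% of the 10635031 reads of the library labelled brain (95% Wilson interval 42.2% to 42.3%), but 24.4% in that labelled kidney, 10.3% in that labelled colon and between 1.46% and 4.12% in the rest. The lists of intestinal genes are read against these shares. Of 225 listed mRNAs of the intestinal epithelium, 153 were higher, which is 68.0%, and 3 were lower, with a median difference of 3.89. They include 5 markers, described below, that were named because they peak in this library.

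**Figure D1:**
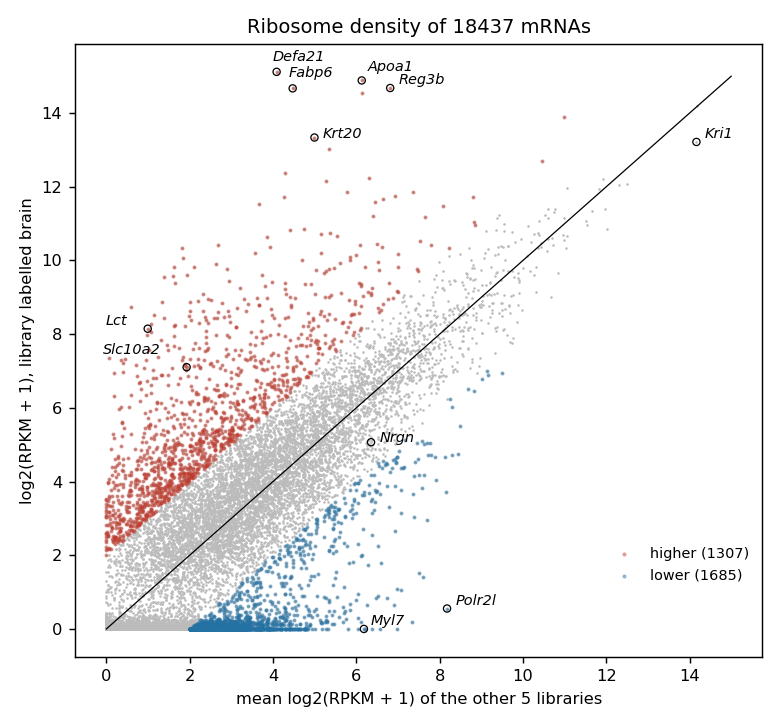
Ribosome density of 18437 mRNAs, with the mean log2(RPKM + 1) of the other 5 libraries on the x axis and log2(RPKM + 1) of the library labelled brain on the y axis. Red points are the 1307 mRNAs higher by 2 or more, blue points the 1685 lower by 2 or more, grey points the rest, and the line marks equal values. Defa21, Apoa1, Reg3b and Fabp6 lie at the top, far above the line.

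The 5 markers that describe the library were all higher, and all 5 had their highest density in it. They were named because they peak here, so this follows from their choice and is no test of the description. Apoa1, the main apolipoprotein of HDL and also part of newly made chylomicrons, had 30285 RPKM, with 251, 159, 108, 22.2 and 15.6 RPKM in the libraries labelled small intestine, kidney, colon, lung and heart. Apoa4, an apolipoprotein of chylomicrons, had 3368 RPKM, with 57.5, 53.0, 27.5, 5.26 and 3.60 RPKM in the libraries labelled small intestine, colon, kidney, heart and lung. Lct, the lactase of the suckling and young animal, had 283 RPKM, with 5.15, 1.23, 0.383, 0.313 and 0.253 RPKM in the libraries labelled small intestine, kidney, colon, lung and heart. For these 3 the library labelled brain stood alone, at 121, 58.6 and 54.9 times the next library. Reg3b, an antibacterial lectin, had 26263 RPKM, with 7212, 312, 26.6, 18.6 and 13.7 RPKM in the libraries labelled kidney, small intestine, lung, colon and heart. It was thus abundant in the library labelled kidney as well, at a ratio of 3.64. Fabp1, a fatty acid binding protein shared by liver, intestine and kidney tubule, had 213 RPKM, with 125, 75.5, 50.3, 26.4 and 1.92 RPKM in the libraries labelled colon, kidney, lung, small intestine and heart. Its difference of 2.69 was the smallest of the 5, and without the library labelled heart it was 1.82, under the size called.

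**Figure D2:**
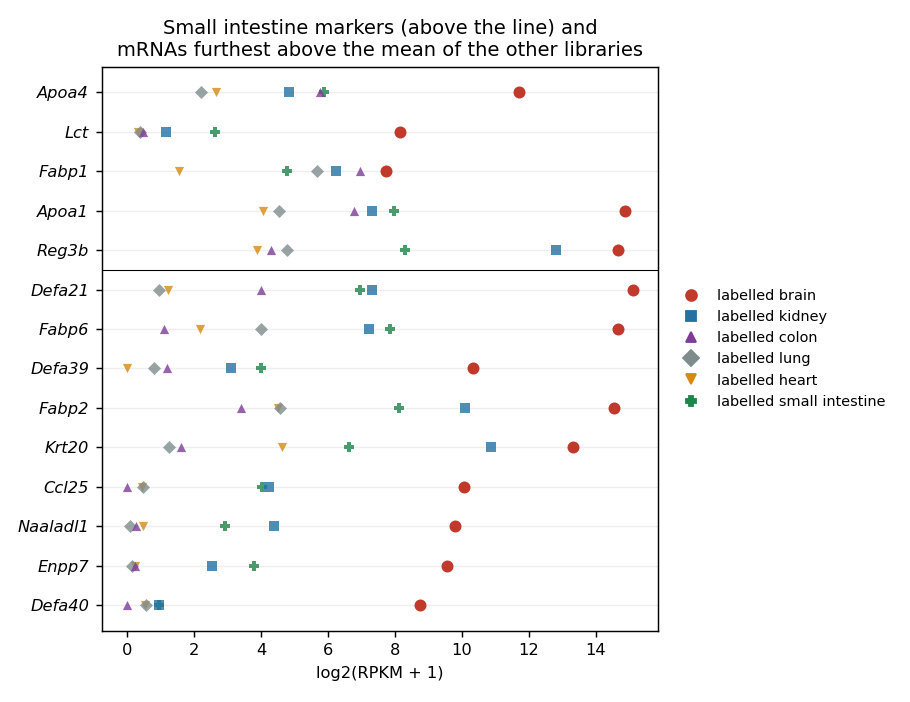
Level of each mRNA as log2(RPKM + 1) on the x axis in the 6 libraries, 1 point per library, for the 5 markers above the line and, below it, the other mRNAs among the 10 with the largest difference. The library labelled brain (red circles) is the highest in each of the 14 rows. The next is the library labelled kidney (blue squares) in 7 rows, that labelled small intestine in 6 and that labelled colon in 1.

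The 10 largest differences belonged to mRNAs of enterocytes and Paneth cells. Defa21 led with a difference of 11.03, followed by Fabp6 with 10.20 and Apoa1 with 8.76. Fabp6, the bile acid binding protein of the ileal enterocyte, had 26087 RPKM, with 229, 149, 15.2, 3.50 and 1.16 RPKM in the libraries labelled small intestine, kidney, lung, heart and colon. The library labelled brain was 114 times the next one, and Fabp6 alone took 1.00% of its reads. Fabp2, the fatty acid binding protein of the intestine, had 24021 RPKM, with 1095, 280.4, 22.9, 21.9 and 9.53 RPKM in the libraries labelled kidney, small intestine, lung, heart and colon. Krt20, a keratin of mature enterocytes, had 10346 RPKM, with 1870.0, 97.1, 23.5, 2.06 and 1.40 RPKM in the libraries labelled kidney, small intestine, heart, colon and lung. Both were next highest in the library labelled kidney, where Krt20 was 5.53 times lower. Ccl25, the chemokine that draws lymphocytes to the small intestine and thymus, had 1064 RPKM here and 0 to 17.7 RPKM elsewhere. Naaladl1, a brush border peptidase, had 897 against 0.0579 to 20.1 RPKM, and Enpp7, the sphingomyelinase of the brush border, 756 against 0.0967 to 12.9 RPKM. The defensins Defa39 and Defa40 complete the 10, with 8.51 and 8.14.

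By level rather than by difference, the 10 most abundant mRNAs of the library labelled brain were Defa21, Apoa1, Reg3b, Fabp6, Fabp2, mt-Atp6, S100a10, Krt20, Kri1 and Muc13. The first 5 lay between 24021 and 35599 RPKM. Muc13, a membrane mucin of the gut surface, had 8294 RPKM here and 5230.2 RPKM in the library labelled kidney, and at most 71.0 RPKM in the remaining 4. S100a10, a calcium-binding protein family member that partners annexin A2, had 15109.6 RPKM, with 5950.3, 4549.8, 3591, 646 and 538 RPKM in the libraries labelled kidney, lung, colon, heart and small intestine. For 2 of the 10 another library was higher. The mitochondrial mt-Atp6, a subunit of ATP synthase, had 18714 RPKM here and 8268 to 36338 RPKM elsewhere. Kri1, a ribosome biogenesis factor, had 9521 RPKM here and up to 104584 RPKM in that labelled kidney. Its reads there lower the RPKM of all other mRNAs of that library. The 10 mRNAs with the most reads took 14.3% of the reads here, and between 10.4% and 37.1% in the other libraries.

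The start sites of these mRNAs were inspected in GRCm39, the build of the deposited tables, with GENCODE M39. The 150 bases before the annotated transcript start are shown for Lct and Fabp6, a proximal and a distal marker of the small intestine, and for Krt20 and Defa21, from the surface and the crypt. All 4 were among the mRNAs far above the other libraries. The strand shown is that of the gene, 5′ to 3′, and capitals mark TATAAA, the TATA box, or CATAAA, the reverse complement of the letters TTTATG searched for as a CDX site.
Lct (chr1:128256056-128256205, minus strand): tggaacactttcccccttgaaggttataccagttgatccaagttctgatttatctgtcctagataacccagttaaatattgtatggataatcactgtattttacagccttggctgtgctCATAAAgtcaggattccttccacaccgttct
Fabp6 (chr11:43492470-43492619, minus strand): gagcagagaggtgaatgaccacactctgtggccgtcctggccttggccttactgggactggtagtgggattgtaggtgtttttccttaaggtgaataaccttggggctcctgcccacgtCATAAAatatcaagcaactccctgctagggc
Krt20 (chr11:99328986-99329135, minus strand): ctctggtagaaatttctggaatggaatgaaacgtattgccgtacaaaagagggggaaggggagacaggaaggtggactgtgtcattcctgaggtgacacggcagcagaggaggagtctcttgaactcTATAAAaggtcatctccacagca
Defa21 (chr8:21515408-21515557, plus strand): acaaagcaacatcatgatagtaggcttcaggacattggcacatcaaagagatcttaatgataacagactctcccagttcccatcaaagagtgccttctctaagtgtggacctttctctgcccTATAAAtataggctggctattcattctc
The capitals begin 31 bases before the start in Lct and in Fabp6, 23 in Krt20 and 28 in Defa21. These 4 were printed because they hold such letters. Of the 14 mRNAs that are markers or among the 10 largest differences, 7 had TATAAA or CATAAA beginning 36 to 20 bases before the start, and 7 did not, namely Apoa1, Apoa4, Reg3b, Fabp2, Ccl25, Enpp7 and Defa40. CATAAA shares its last 5 letters with TATAAA, and the CDX search therefore overlaps with that for a TATA box. TATAAA on the gene's strand began 36 to 20 bases before the start in 17 of 256 promoters of mRNAs above every other library (6.64%), in 45 of 1302 promoters of higher mRNAs (3.46%) and in 300 of all 18304 promoters (1.64%). CATAAA in the same window was found in 7 of 256 (2.73%), 15 of 1302 (1.15%) and 115 of 18304 (0.628%). This window was chosen after these 4 promoters had been seen, and the counts are a description.

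Fat absorption genes were mostly higher. Of 25 listed mRNAs for lipid absorption and chylomicron assembly, 20 were higher and 2 lower, with a median difference of 4.87, and 15 exceeded every other library. Together they held 4.93% of the reads, and their summed RPKM was 61836 here and between 768 and 1732 in the others. Without Apoa1, Apoa4 and Fabp1, which are among the 5 markers, 17 of 22 were higher and the sum here was 27971 RPKM. Most of that sum was Fabp2, at 24021 RPKM. Acsl5, which activates fatty acids, had 1097 RPKM here and at most 206 RPKM elsewhere, in the library labelled lung. Apob, the structural protein of the chylomicron, had 484 RPKM, with 18.4, 11.3, 4.52, 1.90 and 0.570 RPKM in the libraries labelled kidney, colon, small intestine, lung and heart. Apoc3, an inhibitor of lipoprotein clearance, had 506 RPKM and was next highest, at 129 RPKM, in the library labelled colon. Both Apob and its loading factor Mttp (253 RPKM here, at most 17.0 elsewhere) were more than 10 times the next library. Npc1l1, through which cholesterol enters the enterocyte, had 142 RPKM here and at most 2.85 RPKM elsewhere. The lower members were Cd36, a fatty acid receptor of muscle, fat and capillaries as well as gut, with 11.4 RPKM here and 901 RPKM in the library labelled lung, and Scarb1, the HDL receptor, with 2 reads here.

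Brush border hydrolases followed the same pattern. Of 21 listed, 17 were higher, none was lower and 13 exceeded every other library, with a median difference of 6.05. Without Lct, which is a marker, 16 of 20 were higher, with a median difference of 5.77. Anpep, aminopeptidase N, was the most abundant at 3690.5 RPKM, with 133, 57.2, 55.5, 49.5 and 22.0 RPKM in the libraries labelled colon, lung, small intestine, kidney and heart. Sis, sucrase-isomaltase, had 779 RPKM, with 13.0, 10.4, 1.10, 0.830 and 0.381 RPKM in the libraries labelled small intestine, kidney, colon, lung and heart. Enpep, a further aminopeptidase, had 679 RPKM against 2.89 to 69.4 RPKM elsewhere. Mgam, maltase-glucoamylase, had 460.4 RPKM against 1.06 to 28.9 RPKM. Each of these 4 was highest here, whereas the peptidases Ace, Mme and Ggt1 were higher in the libraries labelled lung, colon and colon. The trehalase Treh had 299 RPKM here and 97.5 RPKM in the library labelled colon. Akp3, the alkaline phosphatase known from the duodenum, had 2.47 RPKM, far below its relative Alpi at 189 RPKM. Tmprss15, the duodenal enteropeptidase that activates trypsinogen, had no reads, where 3 reads would give 0.0880 RPKM.

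The position along the intestine was examined with lists of proximal and distal small intestine genes and of colon genes. All 8 distal genes were higher, 6 of them above every other library, with a median difference of 5.43 and a summed 27456 RPKM here against at most 276 RPKM elsewhere. Most of the sum here was Fabp6, at 26087 RPKM. Of 10 proximal genes, 4 were higher, with a median difference of 1.68, but 3 of the 4 are among the 5 markers that describe the library, and without them 1 of 7 was higher, with a median difference of 0. Of the 7, Pdx1 and Onecut2 had no reads in any library, which fixes their difference and this median at 0. The median therefore tells nothing about position. None of the distal or colon genes is a marker. Of 15 colon genes, 3 were higher and 1 lower, with a median difference of -0.69, and none had its highest density here.

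Among the distal genes were those for the route of bile acids through the ileal enterocyte. Slc10a2, the sodium-dependent importer at the brush border, had 137 RPKM, with 16.4, 10.8, 2.13, 0.234 and 0 RPKM in the libraries labelled kidney, colon, small intestine, heart and lung. Fabp6, the carrier inside the cell, was described above, and was the most abundant of the route. Slc51a, one chain of the exporter at the opposite face of the cell, had 331 RPKM, with 34.8, 17.6, 1.92, 0.599 and 0.254 RPKM in the libraries labelled kidney, colon, small intestine, heart and lung. Slc51b, the other chain, had 466 RPKM, with 15.0, 9.96, 1.70, 1.27 and 0 RPKM in the libraries labelled colon, kidney, small intestine, heart and lung. In all 4 the library labelled brain was the highest, and the next was that labelled kidney for Slc10a2 and Slc51a, colon for Slc51b and small intestine for Fabp6. Fgf15, the ileal hormone that restrains bile acid synthesis in liver, was low at 20.8 RPKM from 145 reads, and had at most 1.40 RPKM elsewhere. Nr1h4, the bile acid receptor FXR, had 96.6 RPKM here and somewhat more, 111 RPKM, in that labelled colon. Cubn, the receptor for the intrinsic factor and vitamin B12 complex in ileum and kidney tubule, had 269 RPKM here and 154 RPKM in that labelled colon. Nts, neurotensin, had 112 RPKM against 0 to 11.7 RPKM, whereas Pyy, peptide YY of ileum and colon, had 33.9 RPKM and was higher in that labelled kidney, at 49.2 RPKM.

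On the proximal side Apoa4, Lct, Fabp1 and the alcohol dehydrogenase Adh6a (102 RPKM, at most 2.79 elsewhere) were the 4 called. Of the proximal genes not called, Slc40a1, the iron exporter ferroportin, had 3 reads, which is 0.165 RPKM, and Cybrd1, the duodenal ferric reductase, had none, where 3 reads would give 0.324 RPKM. Slc2a5, the fructose transporter, had 25.6 RPKM here and 95.1 RPKM in the library labelled colon. Pdx1 and Onecut2, transcription factors of duodenum, had no reads in any library, and Gata4, of jejunum and heart, had 6.95 RPKM here and 19.4 RPKM in that labelled heart. Among the colon genes, Car1, a carbonic anhydrase, had 1.92 RPKM and Saa1, an acute phase protein, 2.83 RPKM, against 434 and 624 RPKM in the library labelled kidney. The water channel Aqp8 had no reads here and 123 RPKM there, and was the one called lower. The 3 called higher, the mucin Muc2, Cyp2c55 and the chloride exchanger Slc26a3, were 4.17, 26.2 and 5.9 times as high in that labelled kidney.

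**Figure D3:**
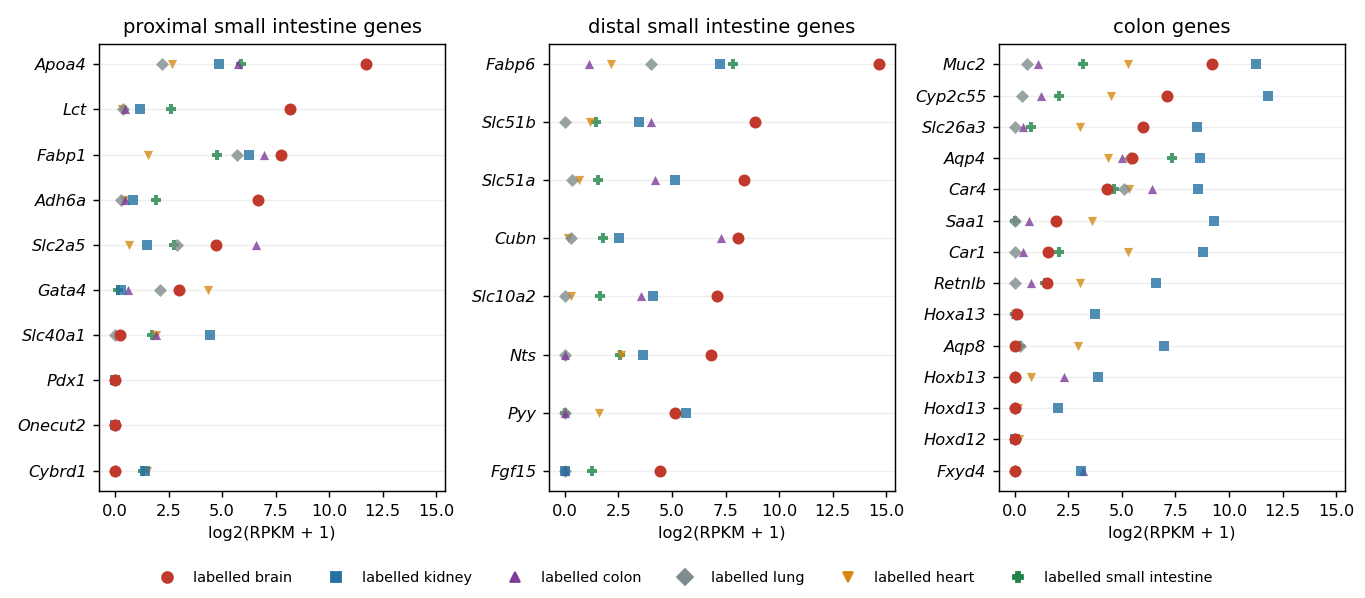
Level as log2(RPKM + 1) on the x axis for 10 proximal small intestine genes, 8 distal small intestine genes and 14 of the 15 colon genes in the 6 libraries, 1 point per library. In the library labelled brain (red circles) the distal genes are all above 4 and highest in 7 of 8 rows, 4 of the 10 proximal genes lie near 0, and the colon genes lie at or below the library labelled kidney (blue squares). Of the proximal genes near 0, Pdx1 and Onecut2 had no reads in any library.

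Paneth cell mRNAs had the largest median difference of the lists, the 5 markers aside. Of 16 listed, 12 were higher, none lower and 10 above every other library, with a median difference of 6.34. Mouse alpha-defensins (cryptdins) are small antimicrobial peptides encoded by a cluster of closely related genes on chromosome 8. Defa21 (chr8:21515557-21516533, plus strand) had 35599 RPKM, with 158, 123, 15.1, 1.31 and 0.927 RPKM in the libraries labelled kidney, small intestine, colon, heart and lung. Defa24 (chr8:22224506-22225490, plus strand) had 5262 RPKM, with 97.1, 31.2, 14.9, 7.16 and 6.03 RPKM in the libraries labelled small intestine, kidney, heart, colon and lung. Their CDSs of 279 bases are shown because most defensin reads of the library were given to these 2, with capitals where they differ.
Defa21: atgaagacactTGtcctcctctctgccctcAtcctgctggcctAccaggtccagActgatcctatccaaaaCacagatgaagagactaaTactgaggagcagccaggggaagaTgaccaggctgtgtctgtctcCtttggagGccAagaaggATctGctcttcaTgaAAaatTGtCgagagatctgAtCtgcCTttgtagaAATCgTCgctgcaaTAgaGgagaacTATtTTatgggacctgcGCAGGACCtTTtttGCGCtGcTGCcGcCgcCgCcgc
Defa24: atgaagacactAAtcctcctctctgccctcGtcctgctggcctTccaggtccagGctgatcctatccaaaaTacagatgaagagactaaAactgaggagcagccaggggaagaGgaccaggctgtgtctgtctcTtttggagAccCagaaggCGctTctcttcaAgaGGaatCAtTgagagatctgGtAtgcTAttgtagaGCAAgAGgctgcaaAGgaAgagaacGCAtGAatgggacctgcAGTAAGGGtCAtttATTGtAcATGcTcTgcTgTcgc
They were equal at 219 of 279 bases (78.5%), with few differences in the first part, which encodes the signal peptide and propiece, and many in the last, which encodes the mature peptide. Defa21 and Defa22 were equal at 277 of 279 bases (99.3%), yet Defa22 had 133 RPKM. Of the windows of 29 bases in the CDS, about the length of a footprint, 23.1% occurred once over the mRNAs of the table for Defa21, 12.4% for Defa22 and 39.4% for Defa24, against 100% for Apoa1, Fabp6 and Lct. Since multi-mapped reads were left out per the methods, the level of each single defensin is uncertain, and 7 further defensins of the list were not analysed here.

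Paneth cell products from outside this cluster were also high. Itln1, a lectin that binds bacterial sugars, had 1367 RPKM, with 30.4, 20.1, 2.73, 1.18 and 0.964 RPKM in the libraries labelled small intestine, kidney, heart, colon and lung. Mmp7, the protease that activates the prodefensins, had 266 RPKM against 0 to 5.93 RPKM elsewhere. Mptx2, a pentraxin, had 366 RPKM here, whereas its neighbour Mptx1 had 22.5 RPKM here and 2367 RPKM in the library labelled kidney. The 2 genes thus went opposite ways between these libraries. Lyz1, the Paneth cell lysozyme, had 149 RPKM here, 65.6 RPKM in that labelled lung and at most 8.25 RPKM in the rest. Of 7 Reg lectins, 4 were higher, with a median difference of 4.62. Without Reg3b, which is a marker, 3 of 6 were higher, with a median difference of 2.28. Reg3g, the partner of Reg3b, had 4815 RPKM, with 1016, 472, 93.5, 11.9 and 4.25 RPKM in the libraries labelled kidney, lung, small intestine, heart and colon. Reg3a had 105 RPKM and Reg4 154 RPKM, the latter against 172 RPKM in that labelled kidney, and Reg1, Reg2 and Reg3d had no reads.

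Goblet cell mRNAs were shared with the library labelled kidney. Of 12 listed, 8 were higher, none was above every other library and 1 had its highest value here, with a median difference of 4.41. Their summed RPKM was 8202 here, 19292 in that labelled kidney and at most 256 elsewhere. Clca1, a secreted mucus protease, had 3237 RPKM here and 9861 RPKM there. Fcgbp, a mucin-like glycoprotein, had 1856 and 2152 RPKM, Zg16, a mucus lectin, 1724 and 2226 RPKM, and Agr2, which folds mucins, 366 and 1884 RPKM. Microvillus and junction mRNAs of the epithelium were higher in 25 of 26 cases, with a median difference of 4.46, but 4 were above every other library. Of the structural ones, villin (Vil1) had 1330.3 RPKM here and 128 RPKM in that labelled kidney, and the brush border myosin Myo1a 966 and 149 RPKM. The keratin Krt8 had 3707 and 1585 RPKM, and Epcam, which marks most epithelia, had 1130.0 and 1175 RPKM.

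Of 17 enteroendocrine genes, 10 were higher and none lower, with a median difference of 2.95. Chromogranins of secretory granules were shared with the library labelled small intestine, where Chgb had 4567 RPKM and Chga 1268 RPKM, against 664 and 426 RPKM here. Of the hormones, Sct, Gip, Nts and Ghrl were highest here, whereas Cck, Tac1 and Sst were highest in that labelled small intestine. Sct, secretin, had 208 RPKM, with 78.1, 0.941, 0, 0 and 0 RPKM in the libraries labelled kidney, small intestine, colon, lung and heart. Gip, an incretin, had 78.6 RPKM from 361 reads, with 0.908, 0, 0, 0 and 0 RPKM in the libraries labelled small intestine, kidney, colon, lung and heart. Gcg, whose precursor also gives GLP-1, had 55.5 RPKM here and 97.2 RPKM in that labelled kidney. Cells of the crypt were represented by Olfm4, a marker of small intestinal stem cells, with 252 RPKM against 0.240 to 4.86 RPKM elsewhere, while Lgr5 had 4.98 RPKM from 144 reads. Of 11 stem cell genes 3 were higher, namely Olfm4, Cdca7 and Axin2, and 1, the receptor Tnfrsf19, was lower. The median difference of the 11 was 0.79, and 4 had no reads here. Of 13 proliferation genes 5 were higher and 9 were highest here, among them Ccnb1 at 46.1 and Top2a at 39.9 RPKM. Of 11 tuft cell genes 2 were higher, the adaptor Sh2d6 (20.9 RPKM) and the channel Trpm5 (4.52 RPKM). The tuft cell genes had a median difference of 0.249, and 3 had no reads here.

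Of 23 nutrient and ion transporters, 13 were higher and none lower, with a median difference of 2.42, and 4 exceeded every other library. Slc28a2, a purine nucleoside carrier, had 865 RPKM, with 27.9, 6.54, 6.21, 3.50 and 2.35 RPKM in the libraries labelled kidney, heart, lung, small intestine and colon. Slc5a1, the sodium-glucose cotransporter SGLT1, had 657 RPKM, with 129, 79.1, 18.5, 15.9 and 3.37 RPKM in the libraries labelled kidney, colon, small intestine, lung and heart. Slc15a1, the peptide transporter PEPT1, had 499 RPKM, with 62.1, 7.81, 2.62, 0.632 and 0.417 RPKM in the libraries labelled kidney, small intestine, lung, heart and colon. These 3 were 31.0, 5.07 and 8.04 times the next library, and the fourth above every other library was the anion exchanger Slc26a6, at 217 RPKM and 27.9 times. Amino acid transporters that kidney tubules also use were split. Slc7a8 and Slc3a1 were higher in the library labelled colon, at 958 and 779.8 RPKM against 482 and 345 RPKM, whereas Slc6a19 had 345 RPKM here and 149 RPKM there.

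Enterocytes also make citrulline for the kidney, and 6 of 9 genes of citrulline and urea synthesis were higher, with a median difference of 3.12. Oat, ornithine aminotransferase, had 2832 RPKM, with 526, 511, 287, 195 and 94.8 RPKM in the libraries labelled lung, colon, kidney, heart and small intestine. Cps1, which makes carbamoyl phosphate, and Otc, which joins it to ornithine to give citrulline, had 196 and 217 RPKM, and at most 23.6 and 40.1 RPKM elsewhere. Ass1, which uses citrulline to make arginine, had 149 RPKM here and 4599.9 RPKM in the library labelled colon. These 3 mRNAs, of steps that lead to citrulline, were thus highest here, and Ass1 was not. Of 26 xenobiotic metabolism genes, 19 were higher and 3 above every other library, with a median difference of 3.51. Abcb1a, a drug efflux pump, had 541 RPKM, Cyp4v3 412 RPKM and the sulfotransferase Sult1b1 387 RPKM, each highest here. Sult1d1 had 510.1 RPKM but 765 RPKM in that labelled colon, and Ces2e had 355 RPKM against 104 RPKM in that labelled kidney.

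Of 21 intestinal transcription factors, 14 were higher and none lower, with a median difference of 3.26. Klf5, of the crypt epithelium, had 1179 RPKM here and 488 RPKM in that labelled kidney. Hnf4g, a nuclear receptor of the enterocyte, had 396 RPKM, with 16.9, 7.85, 3.11, 0.353 and 0.187 RPKM in the libraries labelled kidney, colon, small intestine, heart and lung. Cdx2, the homeobox factor that specifies intestine, had 52.0 RPKM, with 16.8, 0.421, 0.262, 0 and 0 RPKM in the libraries labelled kidney, small intestine, heart, colon and lung. Cdx2 was therefore next highest in the library labelled kidney and at or near 0 in the other 4. Elf3, an epithelial ETS factor, had 809.5 RPKM, Isx, which controls vitamin A uptake, 164 RPKM and Hnf4a 134 RPKM. Gata5, of the distal small intestine among other tissues, had 46.9 RPKM and was one of the 2 above every other library, with Hnf4g.

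Letters bound by some of these factors were searched in the 250 bases before the transcript start, on both strands. CAAAGTCCA, the core bound by HNF4, was found in 6 of 256 promoters of mRNAs above every other library (2.34%), 21 of 1302 of higher mRNAs (1.61%), 12 of 1678 of lower mRNAs (0.715%) and 76 of all 18304 (0.415%). GTTAAT, part of the site of HNF1, was in 10.2%, 7.45%, 5.13% and 6.00% of the same 4 sets. TTTATG, the CDX letters, were in 12.5%, 10.7%, 7.45% and 9.27%. TATAAA was in 23.0%, 13.1%, 8.82% and 10.1%. For each of the 4 the share was largest among mRNAs above every other library. The GC content of these promoters was 50.7%, 54.0%, 56.3% and 54.6% in the same order, and its part in the shares was not tested. A match is a description of letters and not of binding. The CDSs differed less, as the median share of codons ending in G or C was 60.8% for higher mRNAs, 57.5% for those above every other library and 61.7% for lower ones, among mRNAs with at least 5 RPKM in a library.

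Cells outside the epithelium were present in part. Of 9 smooth muscle genes 7 were higher, with a median difference of 2.81. Tagln had 1380.3 RPKM, Myh11, the heavy chain of smooth muscle myosin, 880.3 RPKM and Acta2 529.8 RPKM, each somewhat higher in the library labelled kidney, at 1831, 1095 and 558 RPKM. Of 15 genes of intestinal lymphocytes and plasma cells 6 were higher, although the median difference of the 15 was -0.31. They were Pigr, the epithelial carrier of IgA, with 1032 RPKM, the joining chain Jchain with 20.1 RPKM, Mzb1 and Cd79b of the B lineage with 88.7 and 41.1 RPKM, and Gzma and Cd3e of T cells with 79.4 and 10.6 RPKM. Cd8a, Cd8b1, Ms4a1, Ccl5 and Gzmb had no reads. No gene of macrophages and MHC class II was higher among 11, none of 8 collagen and fibroblast genes, and none of 6 endothelial genes, where Cldn5 and Tek were lower. Genes not called were not absent. The collagen and fibroblast genes held 1.78% of the reads here, with a median difference of 1.14. Those of macrophages and MHC class II summed to 810 RPKM here. Of 9 enteric neuron genes 2 were higher, Vip (117 RPKM) and the peripheral filament Prph (6.06 RPKM). The median difference of the 9 was -0.605, and 4 had no reads here. Red blood cell genes summed to 1.95 RPKM, and 3 of 7 were lower.

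**Figure D4:**
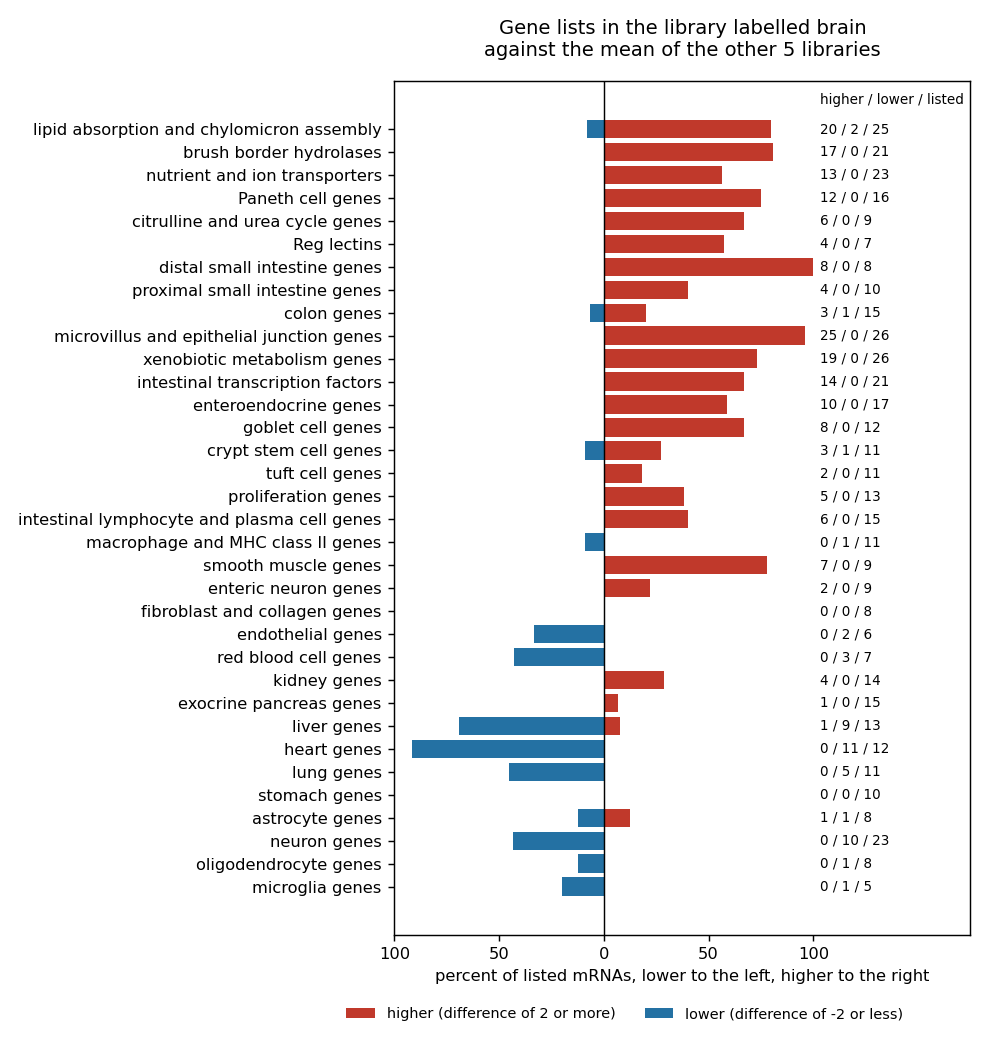
Share of the listed mRNAs of 34 gene lists that were higher (red, to the right) or lower (blue, to the left) by 2 or more in the library labelled brain than in the mean of the other 5, in percent, with the counts at the right. Over all mRNAs 7.09% were higher and 9.14% lower. Most brush border hydrolases (17 of 21), lipid absorption genes (20 of 25) and all 8 distal genes are higher, and 11 of 12 heart genes are lower. The counts of hydrolases and lipid absorption genes include markers.

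mRNAs that point to other tissues were mostly low. Of 12 heart genes 11 were lower, and their summed RPKM was 38.1 here against 159730.4 in the library labelled heart. Lung genes summed to 148 RPKM here against 89475 in that labelled lung, with 5 of 11 lower. Stomach genes summed to 0.0606 RPKM, with 9 of 10 without reads, and exocrine pancreas genes to 34.6 RPKM, nearly all from the colipase Clps (32.5 RPKM), the 1 member called higher. Of 13 liver genes 9 were lower and 1, Apoh, was higher at 15.1 RPKM, while albumin (Alb) had 28.8 RPKM here and 633 RPKM in that labelled kidney.

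Kidney genes were the exception, with 4 of 14 higher and none lower. Umod, the uromodulin of the thick ascending limb, had 449 RPKM from 9187 reads, with 16438, 56.7, 10.9, 8.82 and 8.01 RPKM in the libraries labelled colon, lung, kidney, heart and small intestine. Slc12a1, the cotransporter of the same segment, had 30.1 RPKM here and 724 RPKM in the library labelled colon, and Miox, of the proximal tubule, 58.2 and 1189 RPKM. The fourth, Klk1, a kallikrein with close paralogs and therefore uncertain, had 3366 RPKM here, and was higher in those labelled kidney and colon, at 17498 and 13509.8 RPKM. None of the 14 was highest here. Their sum was 4082 RPKM here, and 40807 and 17521 RPKM in those labelled colon and kidney. Without Klk1 these sums were 715, 27297 and 23.8 RPKM, so that most of the sum here and nearly all of that in the library labelled kidney was Klk1. Aqp2 and Nphs1 had no reads here.

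To describe such overlap without choosing genes by this library, mRNAs were selected in the other 5 alone. An mRNA belonged to a library if it had at least 100 RPKM there and its RPKM + 1 was at least 20 times that in each of the other 4, and its RPKM in the library labelled brain was expressed as a percent of that library. For 43 mRNAs of the library labelled kidney the median was 52.7% (range 0.453% to 364%), and none was without reads. Reg3b, Muc13 and the secreted metalloprotease Adamdec1 had the highest RPKM here, with Adamdec1 at 4553 RPKM here and 4156 RPKM there. The library labelled kidney was also the nearest in rank over 9391 mRNAs with a mean of 5 RPKM or more, with a Spearman correlation across mRNAs of 0.726, against 0.545, 0.493, 0.424 and 0.257 for those labelled colon, lung, heart and small intestine. mRNAs are not independent replicates, and the correlation is a description.

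For 78 mRNAs of the library labelled colon the median was 2.62%, with quartiles at 1.41% and 4.83%. Khk, the fructokinase of liver, gut and kidney, reached 83.2% (1389 RPKM here) and the sodium-coupled transporter Slc6a19 232%. Rida, an enzyme of liver and kidney, had 4.39% and Umod 2.73%. Slc6a19 and Cubn were the 2 of the 78 above 100%, and 13 were at 10% or more. For 58 mRNAs of the library labelled heart the median was 0.0148%, for 43 of that labelled lung 0.0542% and for 155 of that labelled small intestine 0.0591%. Those with the highest RPKM here, with their percents, were Tpm1 (1.89%), Casq2 (1.07%) and Pygm (1.32%) of the heart set, Slc34a2 (37.2%), Mfap4 (2.89%) and Scgb1a1 (0.195%) of the lung set, and Camk2n1 (5.79%), Aplp1 (2.00%) and Negr1 (2.24%) of the last. In the latter set 49 of 155 had no reads here, and its median is the value of Cmtm5, from 1 read. In the heart set 21 of 58 and in the lung set 12 of 43 had no reads here. The median of the heart set lies between Cmya5 and Ckmt2, with 2 and 4 reads. The medians of the heart set and of that labelled small intestine thus lie near the read floor, and are no precise levels.

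The same was done in reverse for 102 mRNAs with at least 100 RPKM here that exceeded every other library by 2 or more, which their selection makes low elsewhere. Their median in the library labelled small intestine was 1.39% of the level here, with quartiles at 0.837% and 2.09%, and all 102 had reads there. In that labelled kidney the median was 4.43% with quartiles at 1.08% and 12.3%, and in those labelled colon, heart and lung it was 0.325%, 0.245% and 0.101%. The band in the library labelled small intestine was thus the narrowest as a ratio of quartiles. The source of these reads was not tested.

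**Figure D5:**
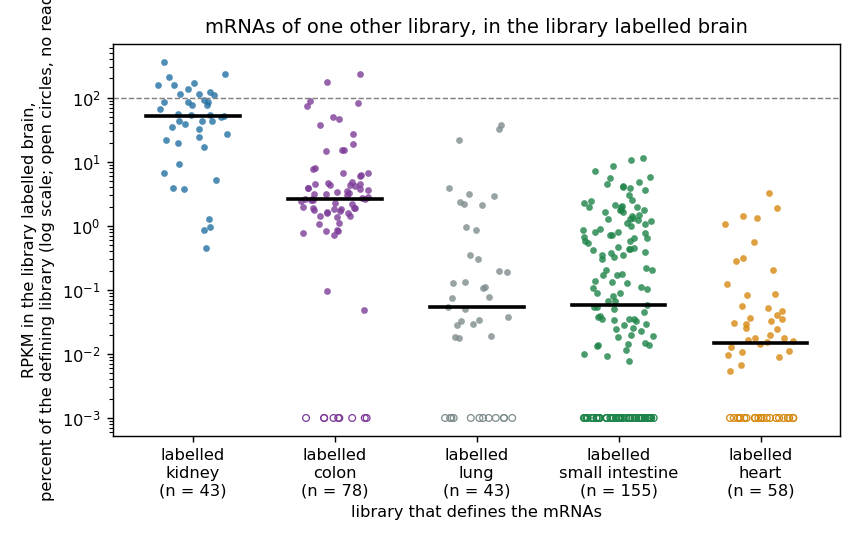
RPKM in the library labelled brain as a percent of the RPKM in the library that defines each set, on a log scale, for the mRNAs of 1 other library. Points are mRNAs, open circles at the bottom edge are mRNAs without reads here, bars are medians, and the dashed line is 100%. The set of the library labelled kidney lies around its median of 52.7%, that labelled colon in a band around 2.62%, and the other 3 have medians under 0.1%.

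The lower mRNAs held short CDSs and genes of other tissues. The median CDS was 1065 bases for the 1685 lower mRNAs, 1260 for the 1307 higher and 1320 for all. The lowest 10 differences were those of Polr2l, Syngr1, Uqcc4, Ndufa3, Phpt1, Uqcr11, Tnni3, Rnaseh2c, Myl7 and Ppp1r14c. Tnni3 and Myl7, a troponin and a myosin light chain of heart, were abundant in the library labelled heart at 24269 and 4983 RPKM. Others of the 10 are used by all cells. Polr2l, a subunit shared by the RNA polymerases, had 1 read here, which is 0.468 RPKM, with 1752, 461, 283, 93.8 and 92.7 RPKM in the libraries labelled heart, small intestine, colon, kidney and lung. Ndufa3, a subunit of respiratory complex I, had none, with 503, 113, 76.9, 73.3 and 22.4 RPKM in the libraries labelled heart, small intestine, kidney, colon and lung. Uqcc4, an assembly factor of complex III, had none either, with 185, 169, 142, 114 and 60.1 RPKM in the libraries labelled colon, heart, lung, small intestine and kidney. For Ndufa3 and Uqcc4 a count of 0 allows up to 0.940 and 0.691 RPKM. Such gaps were counted in every library. Of 1601 mRNAs with at least 20 RPKM in each of the other 5, 20 were under 1 RPKM in the library labelled brain, with a median CDS of 484.5 bases against 957 for the 1601. The same count was 10 of 1545 for the library labelled lung, 6 of 1731 for that labelled small intestine, 5 of 1524 for that labelled colon, and 0 of 1603 and of 1578 for those labelled heart and kidney. The part of CDS length in these gaps was not tested.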

How the data were processed

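The 6 Ribo-seq libraries of mouse tissue were grouped by the tissue in their labels, with 1 library per label. The methods describe adapter trimming (Cutadapt), STAR alignment to 1 mRNA per gene, chosen for its longest CDS (GRCm39), removal of multi-mapped reads, and prediction of P-sites before counting. They speak of macrophage libraries, and the same steps are assumed for tissue. Tool versions are not given in the sources used here. The authors deposited RPKM values, scaled to CDS length and to all reads on CDSs, so an mRNA with many reads lowers the RPKM of all others. RPKM times CDS length gave whole multiples of 1 read, within 0.01, for 100% of values, which recovered 4504853 to 10635031 reads on CDSs per library. An mRNA missing from a library was set to 0. Symbols came from GENCODE M39.

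Differences were computed on log2(RPKM + 1), with no filter on low values and no p-value. The members and the 35 gene lists were chosen with earlier results of these data known. Named were the markers, the 10 largest and lowest differences, the 10 highest RPKM, up to 5 members per list with the highest RPKM, those called against their list and the 3 highest of each set of another library. Other mRNAs were named after their values were seen, and some that the rule names are not reported here. Read recovery and calls were tested on simulated data. Python 3.11.15, numpy 2.4.6, pandas 2.3.3, scipy 1.17.1 and matplotlib 3.10.9 were used. Alternatives covered the pseudocount, the summary of the other libraries, each of them left out, the scaling, Kri1, a filter, thinning and the size called. Lists without the markers, and without Klk1, were added after seeing the data.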

Additional observations from a re-analysis of the deposited data

How the results depend on the processing

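No paired analysis was possible because each label has 1 library. Under 13 alternatives, the count of 1307 higher mRNAs was 2067 with a pseudocount of 0.1, 431 with a pseudocount of 10 and 572 with a size called of 3, and that of 1685 lower mRNAs was 4053, 164 and 591. The share of calls that were higher went from 43.7% to 33.8% and 72.4% with the 2 pseudocounts, so the balance of higher and lower mRNAs rests on this choice. The 256 mRNAs above every other library became 116 with a pseudocount of 10, 122 with a size called of 3, 396 without the library labelled colon and 575 without that labelled kidney. Other alternatives left these 3 counts within 1.5 times, and the count of 153 intestinal list members lay between 127 and 167 under all 13. Rescaling by TMM factors gave 1338 higher mRNAs, of which 1300 were shared. The 24 mRNAs followed were the markers and those with the 10 largest and 10 lowest differences, so most were chosen for their size. None changed direction and 23 stayed past 2 under every alternative but the size called, which was not applied to them. Their choice made this likely. Their differences moved, and Fabp1 fell below 2 without the library labelled heart. The median percents of the sets of the libraries labelled colon, heart, kidney, lung and small intestine were 3.43, 0.0218, 59.9, 0.105 and 0.0609 with at least 50 RPKM and 10 times, and 2.69, 0.0121, 39.1, 0.0288 and 0.0297 with at least 100 RPKM and 50 times. Here 3 reads on a CDS of 1000 bases are 0.282 RPKM. On longer CDSs the same reads give a lower RPKM, and levels from so few reads are uncertain.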
